A study of Mus musculus with 36 samples.

Results

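The genes described here are 10 that handle cholesterol and stored lipid: the nuclear receptors Nr1h2 and Nr1h3, the efflux and lipoprotein genes Abca1, Abcg1, Apoe and Mylip, the storage genes Soat1 and Plin2, the lipase Lpl and the oxysterol-making enzyme Ch25h. They were taken by exact symbol from the 19879 genes listed for 36 RNA-seq libraries of BV-2 cells, an immortalized mouse microglial line whose genotype is labelled wild-type. Vehicle controls received DMSO or EtOH at 0.2% without LPS. The LPS group received lipopolysaccharide at 600 ng/mL, and the other groups received the same LPS with 30 µM dimethyl fumarate (DMF), 30 µM monomethyl fumarate (MMF) or 6 µM cannabidiol (CBD). Each of the 6 treatments was collected at 4 h and at 24 h in 3 libraries, which gave 12 groups. In the LPS experiments the serum in the medium was lowered just before the drugs were added. DMF and MMF had been dissolved in DMSO and CBD in EtOH. The solvent given with LPS alone is not stated in the sources used here, so a drug and its solvent cannot be told apart in the comparisons of a drug with LPS. All groups share 1 cell line, and the replicates are repeat experiments on it, so p-values describe the spread between those repeats.

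As background, cells cannot break down the sterol ring of cholesterol, and macrophages and microglia that take up membrane debris either export the excess or store it as cholesteryl ester in lipid droplets. The liver X receptors (LXR), encoded by Nr1h3 (LXR alpha) and Nr1h2 (LXR beta), bind oxysterols and, as dimers with retinoid X receptors, switch on genes of export. Abca1 and Abcg1 are well-known LXR targets in macrophages. In the brain, microglia clear myelin debris, and cholesterol export through ABC transporters to apolipoprotein E is part of that task.

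All 10 genes are protein-coding, and their positions are given on GRCm39 as the files list them. Among the receptors, Nr1h3 lies at chr2:91014406-91033179 (- strand) and Nr1h2 at chr7:44199040-44203375 (- strand). Abca1, which loads cholesterol onto lipid-poor apolipoproteins, lies at chr4:53030787-53159895 (- strand), and Abcg1, which passes it to lipoprotein particles, lies at chr17:31276649-31336962 (+ strand). Apoe, the main lipoprotein carrier of the brain, is at chr7:19430034-19433113 (- strand), and Mylip, an E3 ligase that degrades lipoprotein receptors, is at chr13:45543218-45565498 (+ strand). Soat1, which esterifies cholesterol, is at chr1:156252095-156301901 (- strand), and Plin2, which coats lipid droplets, is at chr4:86566623-86588297 (- strand). Lpl, which releases fatty acids from lipoproteins, is at chr8:69333143-69360100 (+ strand), and Ch25h, which makes the LXR ligand 25-hydroxycholesterol, is at chr19:34451178-34452564 (- strand).

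The promoters of Abca1 and Abcg1 are shown because both transcripts rose with DMF at 24 h but parted with CBD. That of Soat1 is shown too. Besides Abca1, it was the only gene whose window held a match to the letters below. Soat1 changed with CBD at 24 h, but 8 of the 9 tested genes were called there, so this does not single it out. Each window runs from 250 bases before to 50 bases after the start of the canonical GENCODE vM39 transcript on GRCm39, and is written 5′ to 3′ on the gene's own strand. The Abca1 window is chr4:53159851-53160150 (- strand), the Abcg1 window chr17:31276411-31276710 (+ strand) and the Soat1 window chr1:156301852-156302151 (- strand). Capitals mark matches on either strand to a relaxed LXR half-site pair (GGTNA and GGTCA separated by 5 bases), the core of an antioxidant response element (TGACNNNGC) and the E-box core (CACGTG).
Abca1: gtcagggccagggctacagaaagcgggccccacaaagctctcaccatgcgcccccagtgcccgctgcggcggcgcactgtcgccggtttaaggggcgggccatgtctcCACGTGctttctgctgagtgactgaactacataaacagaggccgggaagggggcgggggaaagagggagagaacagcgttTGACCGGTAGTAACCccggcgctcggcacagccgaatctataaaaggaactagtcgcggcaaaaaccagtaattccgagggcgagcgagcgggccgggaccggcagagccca
Abcg1: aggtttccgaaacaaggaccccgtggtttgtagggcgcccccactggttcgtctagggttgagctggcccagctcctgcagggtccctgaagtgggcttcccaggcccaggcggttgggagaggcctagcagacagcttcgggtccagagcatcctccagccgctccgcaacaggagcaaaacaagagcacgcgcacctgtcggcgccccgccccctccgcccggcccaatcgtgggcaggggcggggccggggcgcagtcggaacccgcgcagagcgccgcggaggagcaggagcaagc
Soat1: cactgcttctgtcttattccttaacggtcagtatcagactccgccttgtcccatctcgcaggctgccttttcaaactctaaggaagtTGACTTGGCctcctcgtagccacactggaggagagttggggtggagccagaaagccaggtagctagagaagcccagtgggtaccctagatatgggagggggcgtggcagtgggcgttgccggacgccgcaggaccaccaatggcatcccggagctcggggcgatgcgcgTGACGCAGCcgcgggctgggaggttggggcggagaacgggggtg
The Abca1 window held a relaxed LXR match on the opposite strand, whose leftmost base lies 62 bases before the start, and an E-box core at position -142. The relaxed letters were chosen after this promoter had been read, so the match in Abca1 carries no weight of its own. These letters occur in 33 of 21757 promoters of the same length (0.152%), and the stricter direct repeat (AGGTCA and AGGTCA separated by 4 bases) occurred in 0 of them. The Soat1 window held antioxidant response element cores at positions -163 and 7, a motif found in 12.5% of all promoters, and the E-box core occurs in 7.82% of them. The Abcg1 window held none of these letters, nor did the windows of the other 7 genes. The windows of Apoe (chr7:19433837-19434136) and Plin2 (chr4:86588410-86588709) lie outside the genes as listed above. That of Nr1h3 (chr2:91025485-91025784) lies inside its gene. None of these windows covers the listed start of its gene. A match is only a string of letters, and no binding was measured here.

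Whole reads were recovered from the deposited normalized counts, and the libraries held 14.1 to 26.7 M reads assigned to genes, with a median of 16.2 M. Libraries of a group differed by more than sampling noise (chi-square per degree of freedom of 4.60 to 29.1 over 36 pairs), so none was counted as a copy of another. As a check of the cell type, the levels of marker genes were read. All 10 of 10 microglial markers were listed, but so were Rbfox3 and Mog, so listing alone does not tell cell types apart. Csf1r had group means of 6450 to 13760 normalized counts and Trem2 of 1018 to 1843, whereas markers of resting microglia in tissue were low, with P2ry12 at 27.4 to 90.3 and Tmem119 at 25.4 to 184. Defining markers of other brain cells were near 0, with Gfap (astrocytes) at no more than 16.0, Rbfox3 (neurons) at no more than 0.802 and Mog (oligodendrocytes) at no more than 0.378, although Mbp reached 748 to 1386.

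Levels below are normalized counts on 1 scale across all 36 libraries, given in replicate order, whereas fold changes come from a separate fit on the 6 libraries of each comparison. Per kilobase of annotated exon, Lpl was the most abundant of the 10 genes in LPS-treated cells at 24 h, at 1092 ± 201 normalized counts (SD, n = 3), followed by Soat1 at 844 ± 47.6 and Nr1h2 at 549 ± 14.8. Plin2 stood at 349.8 ± 12.4, and Abca1 at 139 ± 23.5 differed from Abcg1 at 165 ± 12.6 by about the spread between libraries. Nr1h3 was far lower than its paralog Nr1h2, at 17.6 ± 3.66. Ch25h was barely detected. Its reads were 2, 0 and 7 with LPS at 4 h, 4, 4 and 0 with CBD at 4 h, and 0, 2 and 1 with MMF at 4 h. At 24 h it had 0, 0 and 4 reads with LPS, 0, 0 and 2 in EtOH, 0, 0 and 1 with DMF, and in the remaining 6 groups, DMSO at both times, EtOH and DMF at 4 h, and MMF and CBD at 24 h, it had 0 reads in every library, which allows up to 3 reads per library. Ch25h therefore did not pass the filter on low values, and 9 of the 10 genes were tested in every comparison. With no filter it could be tested in 23 comparisons and was called in 0 by limma (lowest adjusted p = 0.0606, 3 at an unadjusted p under 0.05).

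**Figure D1:**
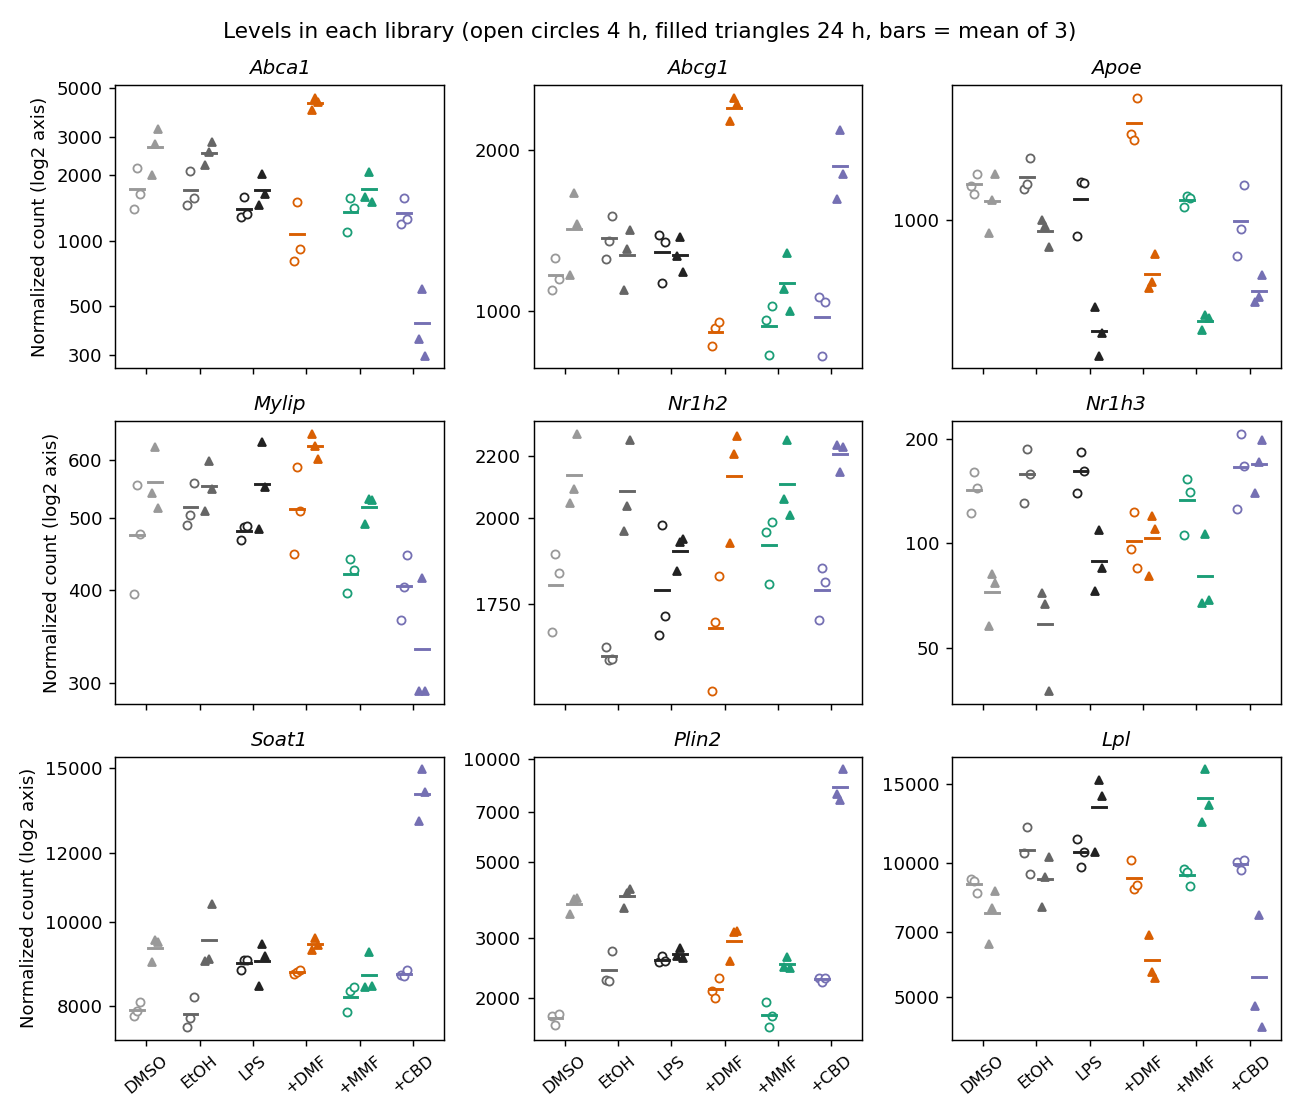
Normalized counts (log2 axis, scaled separately for each gene) of the 9 tested genes in each library, by treatment, with open circles for 4 h, filled triangles for 24 h and bars for the mean of 3. At 24 h, Abca1 was highest with DMF (3989 to 4530.0) and lowest with CBD (297 to 602), and Plin2 with CBD (7615 to 9336) stood above all other libraries.

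The comparison of LPS with its vehicles asks what activation alone did to these genes. At 4 h little moved. Plin2 rose 1.48-fold over DMSO (log2 fold change 0.57 ± 0.06 SE, limma adjusted p = 0.000834), from 1762, 1668 and 1789.9 to 2548, 2648 and 2561. It was the only 1 of 9 genes called against DMSO, where 14.1% of all tested genes were called, and 0 of 9 were called against EtOH, where 10.2% of all genes were. Against EtOH the log2 fold change of Plin2 was 0.11 ± 0.09 (adjusted p = 0.466). There 1 of 9 genes, Soat1 (log2 fold change 0.19, limma adjusted p = 0.0824), had an unadjusted p under 0.05, as did 2857 of all 11491 tested genes. By DESeq2 and by edgeR the EtOH count was also 0, and a fit on all 36 libraries called Soat1. Against DMSO, the log2 fold changes of the genes that did not pass were -0.29 for Abca1, 0.13 for Abcg1, 0.02 for Mylip, -0.02 for Nr1h2, 0.17 for Nr1h3, -0.11 for Apoe, 0.17 for Soat1 and 0.23 for Lpl. Against EtOH they were -0.27 for Abca1, -0.09 for Abcg1, -0.10 for Mylip, 0.14 for Nr1h2, 0.03 for Nr1h3, -0.15 for Apoe and -0.01 for Lpl. The EtOH libraries themselves held more Plin2 at 4 h, at 2250.0, 2231 and 2734. DMSO against EtOH gave a log2 fold change of -0.45 ± 0.08 for Plin2, with an unadjusted p of 0.000414 and an adjusted p of 0.256, and no DMSO library overlapped an EtOH library. By limma, DMSO against EtOH called 0 of 9 genes at 4 h (0.0% of all genes) and 0 of 9 at 24 h (0.00854% of all genes). At an unadjusted p under 0.05 there were 4 of 9 at 4 h, beside 1051 of all 11458 tested genes. At 24 h there was 1 of 9, beside 430 of 11715. The fit blocked on replicate number called 3 of 9 at 4 h, Plin2 among them (adjusted p = 0.000157), beside 7.65% of all genes, and 1 of 9 at 24 h beside 0.171% of all genes. DESeq2 called 1 of 9 at 4 h.

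At 24 h, LPS lowered Abca1, Apoe and Plin2 and raised Lpl against both vehicles. These 4 of 9 genes were called in each comparison, beside 22.7% of all genes against DMSO and 20.5% against EtOH. The LPS libraries are shared by both comparisons, so these are not independent. Apoe stood at 666, 533 and 592 with LPS, at 938, 1097 and 1234 in DMSO and at 998, 969 and 881 in EtOH, and the LPS libraries lay below all vehicle libraries. Against DMSO it fell by 0.85 ± 0.11 on the log2 scale (adjusted p = 0.000381) and by 0.66 ± 0.10 against EtOH (adjusted p = 0.000656). Plin2 stood at 2652, 2796 and 2615 with LPS, below 3527, 3895 and 3910.3 in DMSO and 3675, 4053 and 4166 in EtOH. Its log2 fold changes were -0.48 (adjusted p = 0.000802) and -0.55 (adjusted p = 0.000425). The effect of LPS on Plin2 at 24 h differed from that at 4 h by -1.04 ± 0.09 against DMSO (adjusted p = 2.85e-05) and by -0.66 ± 0.11 against EtOH (adjusted p = 0.0029), by the interaction term, which called 2 of 9 genes against DMSO (9.36% of all genes, Apoe the other) and 1 of 9 against EtOH (9.05%). In the vehicle cells themselves Plin2 rose between 4 h and 24 h, whereas in LPS-treated cells all 6 libraries lay between 2548 and 2796.

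Lpl stood at 10599, 15313 and 14121 with LPS at 24 h, above 6567, 7917 and 8629.8 in DMSO and 7965, 9279 and 10312 in EtOH. It rose 1.74-fold over DMSO (adjusted p = 0.00171) and 1.45-fold over EtOH (adjusted p = 0.0154). The second call was lost without EtOH replicate 4 (adjusted p = 0.0546) or LPS replicate 3 (0.0818). Abca1 with LPS held 1458, 2023 and 1636, against 1999, 2784 and 3271 in DMSO and 2218, 2556 and 2832 in EtOH, so that the LPS and DMSO libraries overlapped. Its log2 fold changes were -0.62 ± 0.17 (adjusted p = 0.0193) and -0.57 ± 0.12 (adjusted p = 0.00738). The DMSO call was lost without DMSO replicate 5 (0.0768), DMSO replicate 6 (0.0917), LPS replicate 1 (0.0578) or LPS replicate 3 (0.0799), and the EtOH call was lost in the fit on all 36 libraries (0.0636). Abcg1, Mylip, Nr1h2, Nr1h3 and Soat1 did not pass against either vehicle. Against DMSO and EtOH in turn, the log2 fold changes were -0.14 and 0.02 for Abcg1, -0.00014 and 0.01 for Mylip, -0.15 and -0.12 for Nr1h2, 0.30 and 0.63 for Nr1h3, and -0.04 and -0.07 for Soat1. The replicate numbers of the vehicle libraries (4 to 6) and of the LPS libraries (1 to 3) do not meet, so that if they mark runs, run and LPS cannot be told apart.

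**Figure D2:**
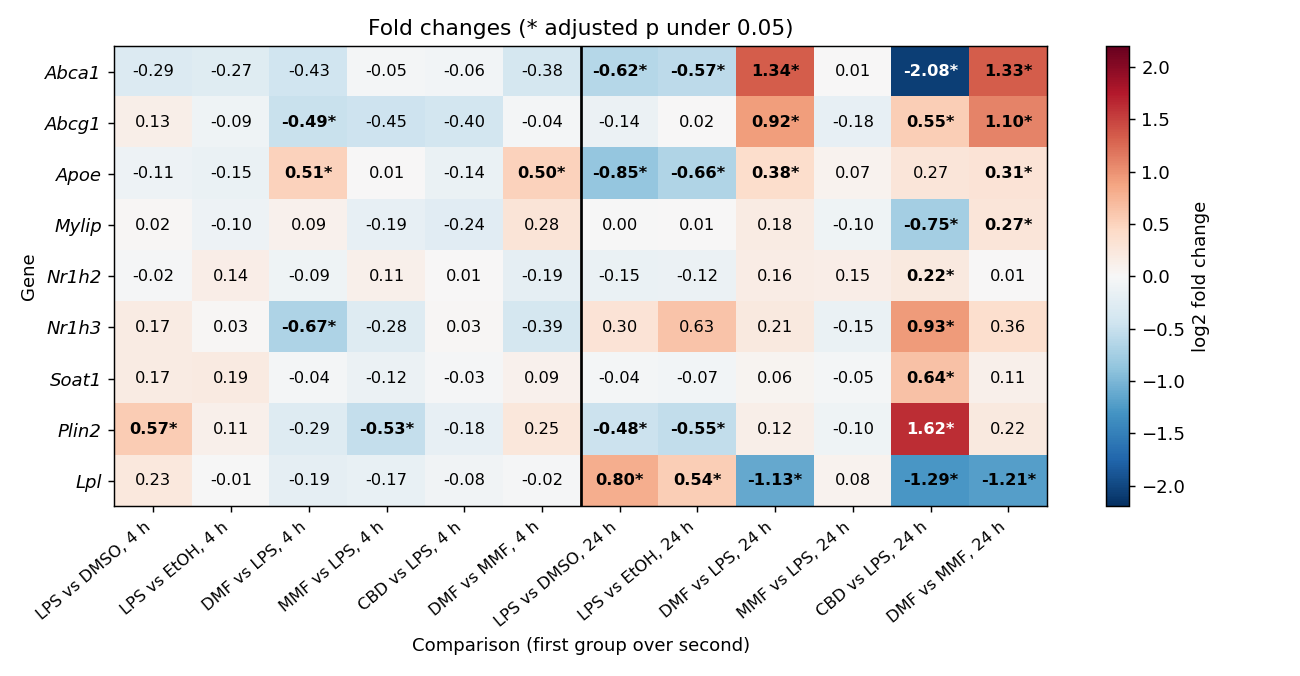
The log2 fold change of each tested gene (vertical) in 12 comparisons (horizontal, first group over second), 4 h at left and 24 h at right, with an asterisk where the limma adjusted p was under 0.05. The column for CBD at 24 h holds 8 asterisks and that for MMF at 24 h holds 0.

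Dimethyl fumarate, an electrophilic ester that activates the NRF2 pathway, raised Abca1 and Abcg1 together at 24 h and lowered Lpl, and Apoe rose by less. Abca1 reached 3989, 4530.0 and 4340.0, the highest group of the 12, against 1458, 2023 and 1636 with LPS alone. The rise was 2.53-fold (log2 1.34 ± 0.11, adjusted p = 4.85e-05). Abcg1 reached 2267, 2509 and 2441 against 1269.6, 1374 and 1181, a 1.89-fold rise (log2 0.92 ± 0.08, adjusted p = 7.36e-05). Both groups of libraries lay apart for both genes. Lpl stood at 6909.9, 5707 and 5531 and fell by 1.13 ± 0.13 on the log2 scale (adjusted p = 0.000443), to a range of 5531 to 6909.9 that overlapped that of the DMSO vehicle. Altogether 4 of 9 genes were called (3 higher, 1 lower) beside 25.1% of all genes (11.9% higher, 13.2% lower), and the median log2 fold change of the 9 was 0.18 against -0.01 over all genes.

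Apoe, at 729, 749 and 851 with DMF, rose 1.30-fold over LPS (adjusted p = 0.0251). The call was lost without DMF replicate 2 (0.0521), LPS replicate 3 (0.0817) or DMF replicate 3 (0.12). Apoe with DMF lay below all 6 vehicle libraries of that time. Mylip (log2 0.18), Nr1h2 (0.16), Nr1h3 (0.21), Soat1 (0.06) and Plin2 (0.12) did not pass, and a fit blocked on replicate number gave Nr1h2 an adjusted p of 0.0482. The 95% interval of the Nr1h2 difference was -0.01 to 0.33 and that of Nr1h3 was -0.22 to 0.65.

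At 4 h, by contrast, the mean levels of both exporters were lower with DMF than with LPS alone, and Abcg1 passed the test. Abcg1 stood at 859.8, 928 and 955 against 1388, 1129 and 1344 and fell by 0.49 ± 0.10 on the log2 scale (adjusted p = 0.0159). Nr1h3, at 96.4, 123 and 85.2 against 139, 184 and 161, fell by 0.67 ± 0.19 (adjusted p = 0.0483). Apoe, at 1484, 1443 and 1758 against 927, 1189 and 1183, rose 1.42-fold (adjusted p = 0.029) and was then the highest group of the 12. These 3 of 9 genes were called beside 11.1% of all genes. The calls of Abcg1, Nr1h3 and Apoe were all lost without LPS replicate 1 (adjusted p of 0.0652, 0.0624 and 0.0852), without LPS replicate 3 (0.0925, 0.16 and 0.0672) and without DMF replicate 3 (0.0554, 0.185 and 0.133). Nr1h3 was also lost without LPS replicate 2 (0.125) or DMF replicate 1 (0.1). Abca1 was scattered at 805, 1507 and 919.9 against 1288, 1589 and 1331, which gave -0.43 ± 0.21 on the log2 scale (adjusted p = 0.251). Plin2 stood close to the threshold at -0.29 ± 0.08 (adjusted p = 0.051, from 0.0137 to 0.193 over the alternatives), and no DMF library overlapped an LPS library. The others were -0.19 for Lpl, 0.09 for Mylip, -0.09 for Nr1h2 and -0.04 for Soat1, and did not pass. The change of the DMF effect from 4 h to 24 h was tested by the interaction term, which called 5 of 9 genes beside 16.4% of all genes. It was 1.76 ± 0.26 for Abca1 (adjusted p = 0.000469), 1.399 ± 0.132 for Abcg1 (adjusted p = 1.38e-05) and -0.95 ± 0.18 for Lpl (adjusted p = 0.00298).

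**Figure D3:**
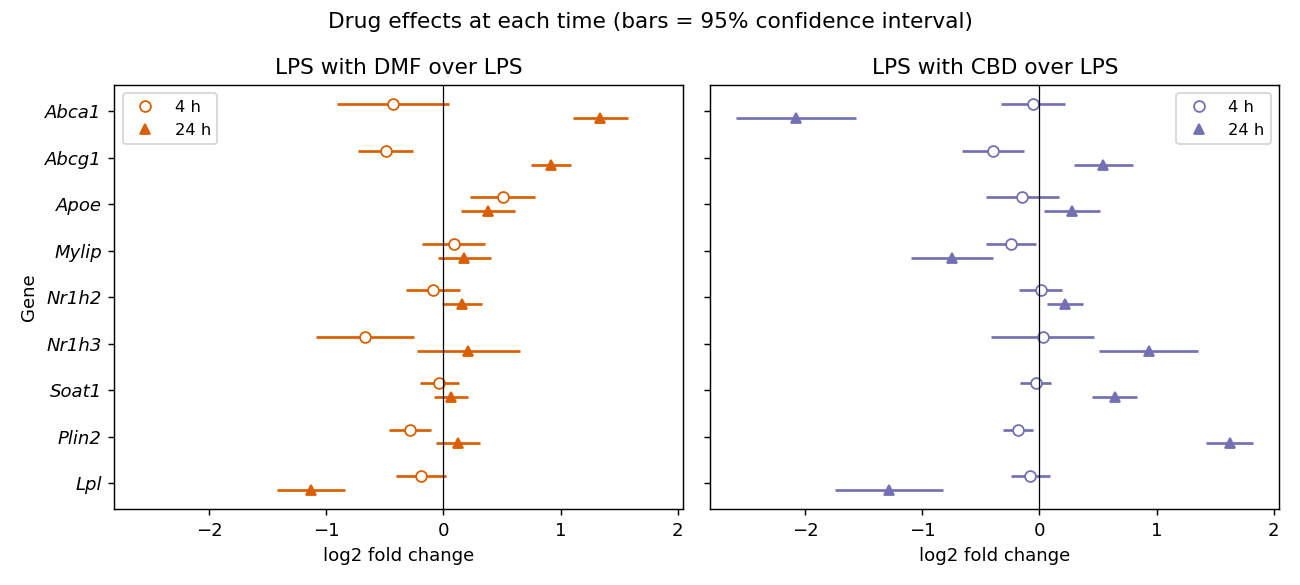
Log2 fold change (horizontal) of each tested gene over LPS alone for DMF (left) and CBD (right), with open circles for 4 h, filled triangles for 24 h and bars for the 95% confidence interval. Abca1 and Abcg1 changed from -0.43 and -0.49 to 1.34 and 0.92 with DMF, whereas with CBD Abca1 changed from -0.06 to -2.08.

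Monomethyl fumarate carries a free acid in place of a methyl ester of DMF, and both were given at 30 µM, so this pair can be compared directly. MMF against LPS called 1 of 9 genes at 4 h, beside 0.122% of all genes. Plin2 stood at 1942, 1639 and 1773 with MMF against 2548, 2648 and 2561 and fell by 0.53 ± 0.08 (adjusted p = 0.049). That call was lost in 5 of the 6 fits that left out a library, with adjusted p from 0.13 to 0.382, and by edgeR. The lost fits were those without LPS replicate 1 (0.139) or 3 (0.382) and without MMF replicate 1 (0.13), 2 (0.179) or 3 (0.256). Abcg1 at 961, 828 and 1020.3 lay below every LPS library but did not pass (log2 -0.45, adjusted p = 0.344). The other 7 genes did not pass either. They stood at -0.05 for Abca1, -0.19 for Mylip, 0.11 for Nr1h2, -0.28 for Nr1h3, 0.01 for Apoe, -0.12 for Soat1 and -0.17 for Lpl. Among these, the MMF libraries of Mylip, Soat1 and Lpl also lay below every LPS library. The share of all genes with such a separation is not given here. At 24 h, 0 of 9 genes were called by limma, edgeR or DESeq2, 0 had an unadjusted p under 0.05, and 0.0% of all genes were called, with 440 of 11584 at an unadjusted p under 0.05. The 95% interval of the MMF effect at 24 h was -0.30 to 0.33 for Abca1 and -0.41 to 0.04 for Abcg1 on the log2 scale. The log2 fold changes at 24 h were 0.01 for Abca1, -0.18 for Abcg1, -0.10 for Mylip, 0.15 for Nr1h2, -0.15 for Nr1h3, 0.07 for Apoe, -0.05 for Soat1, -0.10 for Plin2 and 0.08 for Lpl.

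Compared directly at 24 h, DMF exceeded MMF for both exporters. Abca1 with MMF held 1586, 2079 and 1500.2, and the difference was 1.33 on the log2 scale (95% interval 1.08 to 1.57, adjusted p = 0.000141). Abcg1 with MMF held 1098, 1283 and 999, and the difference was 1.10 (0.90 to 1.30, adjusted p = 0.000133). Lpl with MMF held 12333, 16192 and 13479.6, and DMF was lower by 1.21 (-1.46 to -0.96, adjusted p = 0.000229). Apoe (0.31, adjusted p = 0.0263) and Mylip (0.27, adjusted p = 0.0336) were also higher with DMF. The Apoe call was lost without MMF replicate 1 (0.0952) or 3 (0.0675) or DMF replicate 2 (0.0529) or 3 (0.118), and the Mylip call without any of DMF replicates 1 (0.077), 2 (0.0926) or 3 (0.0797) or MMF replicates 1 (0.121) or 3 (0.0708), and in the fit on all 36 libraries (0.12). In all, 5 of 9 genes were called at 24 h beside 21.5% of all genes.

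The 4 other tested genes did not pass between DMF and MMF at 24 h. The difference was 0.01 for Nr1h2 (95% interval -0.16 to 0.19), 0.36 for Nr1h3 (-0.12 to 0.84), 0.11 for Soat1 (-0.02 to 0.25) and 0.22 for Plin2 (0.03 to 0.40, adjusted p = 0.0872). A fit blocked on replicate number gave Plin2 an adjusted p of 0.00818. At 4 h, 1 of 9 genes was called beside 8.34% of all genes. Apoe was 1.42-fold higher with DMF than with MMF, whose libraries held 1058, 1118 and 1104 (adjusted p = 0.0127), a call lost without MMF replicate 1 (0.0542) or 3 (0.055) or DMF replicate 3 (0.0688). Abca1 and Abcg1 then differed by -0.38 (95% interval -0.86 to 0.10) and -0.04 (-0.27 to 0.19). The differences that did not pass at 4 h were 0.28 for Mylip, -0.19 for Nr1h2, -0.39 for Nr1h3, 0.09 for Soat1, 0.25 for Plin2 and -0.02 for Lpl. This pair was compared at 2 times, with p-values adjusted over all genes at each time. DMF and MMF share their vehicle, nominal dose and collection times.

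**Figure D4:**
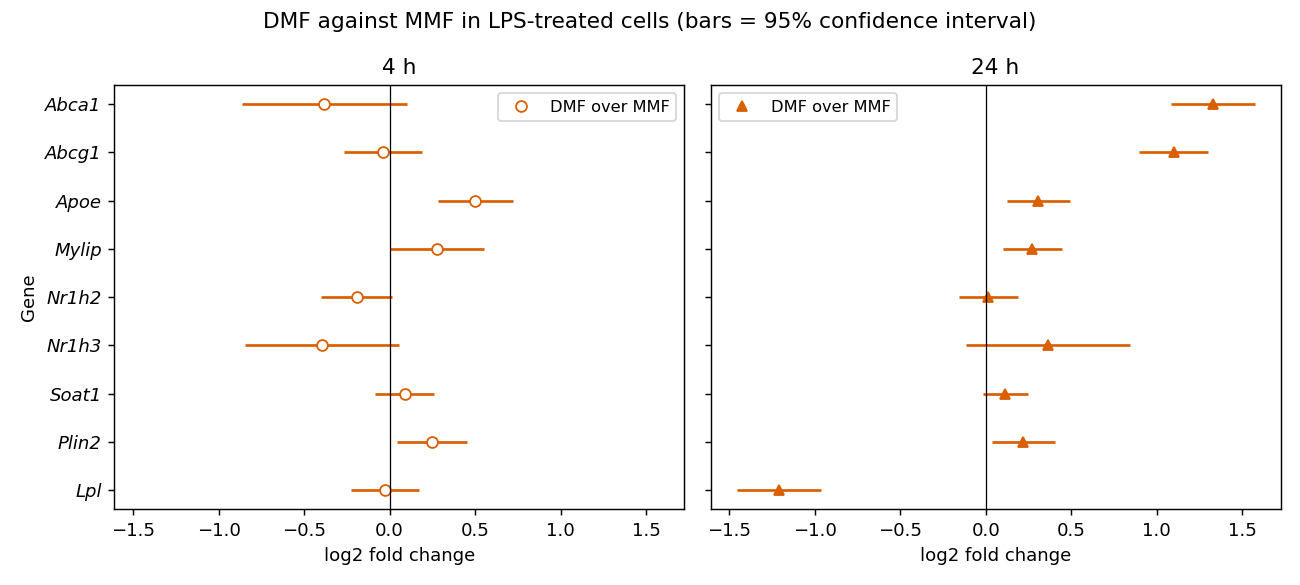
Log2 difference between LPS with DMF and LPS with MMF (horizontal) for each tested gene at 4 h (left, open circles) and 24 h (right, filled triangles), with bars for the 95% confidence interval. At 24 h the intervals of Abca1 (1.08 to 1.57), Abcg1 (0.90 to 1.30) and Lpl (-1.46 to -0.96) lie far from 0.

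Cannabidiol is a non-intoxicating compound of cannabis. At 4 h no gene of the 9 passed the test. By limma, 0 of 9 genes were called beside 0.00875% of all genes. An unadjusted p under 0.05 was found for 3 of 9, beside 363 of all 11424 tested genes. These were Abcg1 (log2 -0.40), Plin2 (-0.18) and Mylip (-0.24). By edgeR and by DESeq2 the count of calls was also 0. The other log2 fold changes were -0.06 for Abca1, 0.01 for Nr1h2, 0.03 for Nr1h3, -0.14 for Apoe, -0.03 for Soat1 and -0.08 for Lpl. Among the levels, Abca1 stood at 1199, 1569.9 and 1264 with CBD and Plin2 at 2283, 2225 and 2282.

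At 24 h, CBD altered nearly the whole group. Lipid storage transcripts rose (Plin2, Soat1), the exporters parted (Abca1 fell, Abcg1 rose), and Mylip and Lpl fell. In all, 8 of 9 genes were called (5 higher, 3 lower), in a comparison in which 48.7% of all tested genes were called (23.9% higher, 24.8% lower). All 9 genes had libraries that did not overlap between the groups, which held for 58.7% of all genes. Abca1 fell to 353, 602 and 297, the lowest group of the 12 and 4.22-fold below LPS alone (log2 -2.08 ± 0.23, adjusted p = 9.76e-05). Abcg1 stood at 1618, 2187 and 1802 and rose 1.46-fold (adjusted p = 0.0035). Since these are bulk libraries, fewer cells with a transcript and less transcript per cell cannot be told apart.

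The ratio of Abca1 to Abcg1 normalized counts within a library needs no scaling between libraries. It ranged from 1.15 to 1.47 with LPS at 24 h, from 1.76 to 1.81 with DMF and from 0.165 to 0.275 with CBD. With MMF it ranged from 1.44 to 1.62, in DMSO from 1.68 to 2.25 and in EtOH from 1.95 to 2.03. At 4 h the libraries of all 6 treatments lay between 0.928 and 1.90. The 3 CBD libraries at 24 h stood apart from all other libraries, while DMF libraries at the same time held more of both transcripts at a ratio near that of the vehicles.

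**Figure D5:**
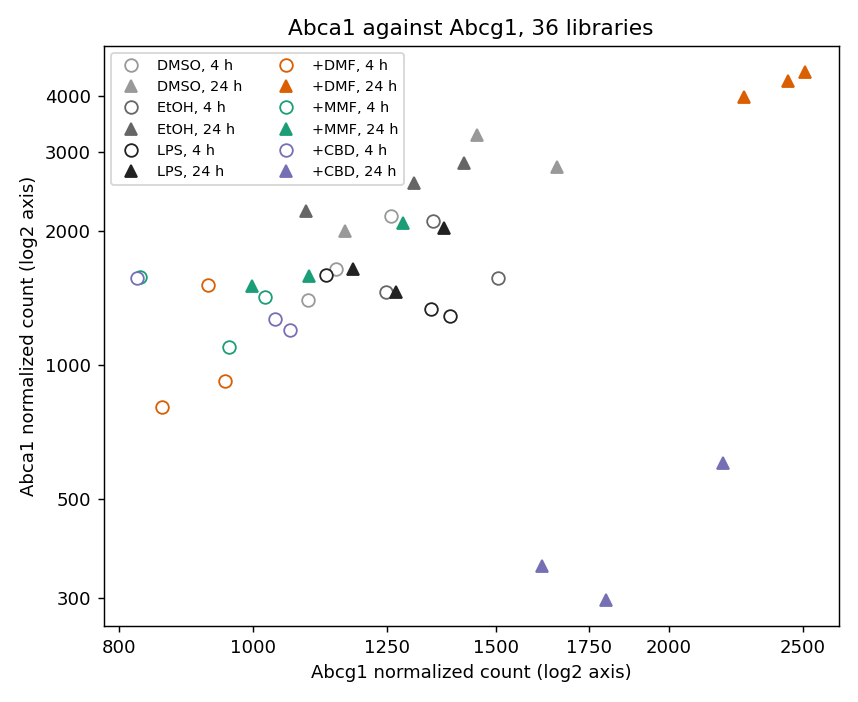
Abca1 (vertical) against Abcg1 (horizontal), both as normalized counts on log2 axes, in all 36 libraries, with open circles for 4 h, filled triangles for 24 h and a color for each treatment. DMF at 24 h lies at the upper right (Abca1 3989 to 4530.0) and CBD at 24 h at the lower right (Abca1 297 to 602, Abcg1 1618 to 2187).

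Among the storage genes, Plin2 reached 7918, 7615 and 9336 with CBD at 24 h against 2652, 2796 and 2615 with LPS alone. The rise was 3.08-fold (log2 1.62 ± 0.09, adjusted p = 3.51e-06), to levels that no other group reached. Soat1 reached 13054, 14959.7 and 14102 against 8449, 9444 and 9133, a 1.56-fold rise (adjusted p = 0.000298) that also placed it above every other library. Lpl stood at 4780.4, 7626 and 4284, and fell by 1.29 ± 0.20 on the log2 scale (adjusted p = 0.000798). As a ratio within each library, Plin2 to Lpl was 0.999 to 2.18 with CBD, 0.183 to 0.25 with LPS alone and 0.372 to 0.568 with DMF.

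Mylip, at 292, 416 and 292 against 484, 634 and 551, fell by 0.75 ± 0.16 on the log2 scale (adjusted p = 0.00349), whereas Abcg1, also a target of LXR, rose. Of the receptors, Nr1h3 stood at 139, 171 and 198 against 72.8, 109 and 84.8 and rose 1.91-fold (adjusted p = 0.00306). Nr1h2 rose 1.16-fold, from 1841, 1925 and 1934 to 2237, 2146 and 2230.3 (adjusted p = 0.0241), and lost its call without LPS replicate 1 (0.0641) or 3 (0.0638) or CBD replicate 1 (0.0806) or 3 (0.0601). Apoe, at 683, 699 and 773, did not pass (log2 0.27, adjusted p = 0.057), and the fit blocked on replicate number gave it an adjusted p of 0.0265.

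The change of the CBD effect between the times was itself tested. The interaction called 6 of 9 genes beside 31.9% of all genes: Abca1 (-2.01 ± 0.29, adjusted p = 0.000184), Abcg1 (0.95 ± 0.18, 0.00122), Plin2 (1.82 ± 0.11, 5.97e-07), Soat1 (0.68 ± 0.10, 0.000233), Lpl (-1.20 ± 0.25, 0.00232) and Nr1h3 (0.91 ± 0.29, 0.0261). The Nr1h3 call was lost without LPS replicate 2 (0.051) or 3 (0.0522) or CBD replicate 1 (0.0642) at 4 h, and without LPS replicate 1 (0.0641) or 3 (0.0554) or CBD replicate 3 (0.069) at 24 h. In the fit blocked on replicate number, Mylip (-0.49, adjusted p = 0.00496) and Apoe (0.43, adjusted p = 0.0105) were called too. For MMF the interaction called 0 of 9 genes by limma beside 0.0% of all genes. An unadjusted p under 0.05 was found for 1 of 9, Plin2 (0.44), and for 384 of all 11839 tested genes. The DMF, MMF and CBD comparisons share their LPS libraries, and their values stand side by side only.

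Between the collection times, the share of these genes called was near that of all genes in 5 of the 6 treatments and lower with LPS alone, so the counts show nothing particular to them. From 4 h to 24 h, 6 of 9 genes were called in DMSO (51.6% of all genes) and in EtOH (58.6%), 2 with LPS (48.9%), 6 under DMF (58.8%), 5 under MMF (49.5%) and 7 under CBD (63.2%). Plin2 rose in DMSO (log2 1.09, adjusted p = 3.59e-06) and in EtOH (0.71, adjusted p = 8.21e-05), where it went from 2250.0, 2231 and 2734 to 3675, 4053 and 4166. Nr1h3 fell by 0.996 in DMSO, by 1.48 in EtOH, by 0.87 with LPS and by 0.74 with MMF, and was not called with DMF or with CBD, where it stood at 125, 207 and 166 at 4 h and 139, 171 and 198 at 24 h. The MMF call had an adjusted p of 0.0503 without MMF replicate 3 at 4 h. Apoe fell by 0.88 with LPS, 1.01 with DMF, 0.81 with MMF, 0.46 with CBD and 0.38 in EtOH.

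Abca1 rose between the times in DMSO (log2 0.60), EtOH (0.56) and with DMF (2.04) and fell by 1.75 with CBD. The DMSO call was lost without any of DMSO replicates 4 (0.0518) or 6 (0.0541) at 4 h, or 5 (0.0518) or 6 (0.0701) at 24 h. Abca1 did not pass with LPS or MMF, where the replicate block gave adjusted p of 0.0167 and 0.0073. Abcg1 rose with DMF (1.39) and with CBD (0.93). Lpl rose with MMF (0.56) and fell by 0.63 with DMF and by 0.89 with CBD.

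Among the remaining calls between the times, Plin2 rose with CBD (1.86), DMF (0.46) and MMF (0.49). Nr1h2 rose in DMSO (0.22), in EtOH (0.34), with DMF (0.33) and with CBD (0.29). Soat1 rose in DMSO (0.21), in EtOH (0.26) and with CBD (0.67), Mylip rose with MMF (0.29) and Lpl fell by 0.25 in DMSO. The Nr1h2 call in DMSO was lost without replicate 4 (0.0805) or 6 (0.0538) at 4 h or 6 (0.101) at 24 h, and that with DMF without replicate 2 (0.0552) or 3 (0.0725) at 24 h. The Mylip call was lost without MMF replicate 1 at 4 h (0.0904) or replicate 2 (0.0573) or 3 (0.0816) at 24 h. The Lpl call in DMSO was lost without replicate 4 (0.0851), 5 (0.0604) or 6 (0.0639) at 4 h, or 4 (0.136) or 5 (0.0676) at 24 h.

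Genes of the same pathways were followed through 4 further lists. Of 15 partners, co-regulators and other targets of LXR, 10 were tested. LPS at 4 h called 4 of them lower and 0 higher against each vehicle. Of all genes, 729 of 11424 were called lower against DMSO and 515 of 11491 against EtOH (14.1% and 10.2% called in either direction). At 24 h LPS called 1 of the list higher and 0 lower against each vehicle, beside 22.7% and 20.5% of all genes. DMF called 4 higher and 0 lower at 24 h, beside 11.9% of all genes called higher and 25.1% called in either direction. CBD called 2 higher and 3 lower at 24 h, a share close to the 48.7% of all genes. Srebf1, the LXR target that drives fatty acid synthesis, fell by 1.11 ± 0.12 with CBD at 24 h (adjusted p = 8.55e-05), while Pltp, a phospholipid transfer protein and LXR target, rose with DMF at 24 h from a low mean of 17.9 to 36.4 normalized counts (log2 1.08, adjusted p = 0.0403). The Pltp call was lost by edgeR (0.0506) and DESeq2 (0.0522), with no filter (0.0618), and without LPS replicate 1 (0.0702) or 2 (0.0796) or DMF replicate 1 (0.101), 2 (0.101) or 3 (0.0839). The median log2 fold change of the list was 0.13 with DMF and -0.11 with CBD at 24 h.

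Of 20 genes of cholesterol and lipoprotein uptake and transport, 17 were tested. With LPS at 24 h, 6 were higher and 3 lower against DMSO and 6 higher and 2 lower against EtOH, beside 22.7% and 20.5% of all genes called. With DMF 4 were higher and 3 lower (25.1% of all genes called), and with CBD 6 were higher and 4 lower, or 58.8% of the list beside 48.7% of all genes. Msr1, a scavenger receptor for modified lipoproteins, rose with LPS at 24 h by 3.06 ± 0.23 against DMSO and 2.58 ± 0.17 against EtOH, and at 4 h by 1.24 against DMSO. Cd36, a fatty acid and lipoprotein receptor, rose by 1.09 against DMSO at 24 h. Against EtOH, Msr1 at 4 h and Cd36 at 24 h missed the limit for naming, a call with an absolute log2 fold change above 1. DMF at 4 h lowered Msr1 by a log2 fold change of -1.07 and raised Lipa, the lysosomal lipase that frees cholesterol, by 1.001 and Gramd1c, a sterol transfer protein, by 1.57. Gramd1c was lower with LPS against DMSO at 4 h (-1.23, adjusted p = 0.0264) and against EtOH at 24 h (-1.14, adjusted p = 0.0241). It missed the limit for naming against EtOH at 4 h and against DMSO at 24 h. The first call was lost without LPS replicate 1 (0.0552) or 3 (0.0943) or DMSO replicate 5 (0.0651) or 6 (0.122), and the second without LPS replicate 1 (0.0677) or 3 (0.117) or EtOH replicate 6 (0.108). Stard4, a cytosolic sterol carrier, fell by 1.61 with DMF and by 1.77 with CBD at 24 h, each against the same LPS libraries. CBD at 24 h also raised Npc1, which moves cholesterol out of lysosomes, by 1.42 ± 0.07, and lowered Scarb1, a receptor for high-density lipoprotein, by a log2 fold change of -1.23 ± 0.15.

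Of 19 genes of the lipid droplet coat, building and breakdown, 13 or 14 were tested. LPS at 24 h called 4 higher and 3 lower of 14 against each vehicle, beside 22.7% of all genes against DMSO and 20.5% against EtOH. The droplet protein Hilpda, an inhibitor of lipolysis, fell by 1.19 ± 0.08 against DMSO and by 1.30 ± 0.09 against EtOH. CBD at 24 h called 7 higher and 2 lower of 13, with a list median of 0.29, beside 48.7% of all genes. Plin3, a relative of Plin2, rose by 1.23 ± 0.11, and Nceh1, which hydrolyses stored cholesteryl ester, by 1.91 ± 0.09, so transcripts of ester making (Soat1) and of ester breakdown were both higher. DMF at 24 h called 2 higher and 1 lower of 14, beside 25.1% of all genes.

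Of 9 genes that make, sense or clear oxysterols, 5 or 6 were tested. CBD at 24 h called 3 higher and 2 lower of 5, beside 48.7% of all genes. Gpr183, the receptor for an oxysterol made from the product of Ch25h, fell by 1.82 ± 0.17 with DMF at 4 h and by 1.69 ± 0.17 with CBD at 24 h. Soat2, the second cholesterol esterifying enzyme, rose by 1.25 ± 0.12 with CBD at 24 h. DMF at 24 h called 2 higher and 2 lower of 5, beside 25.1% of all genes, among them Insig1, which holds back sterol synthesis and is itself a target of the sterol regulatory pathway, lower by a log2 fold change of -1.43 ± 0.09. With MMF, 0 genes of any of the 4 lists were called at either time by limma.

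The genes whose group means followed each member most closely were sought among 10089 protein-coding genes by Pearson's r over the 12 log2 group means, as a description only, since groups share time and treatment. Abca1 was most like Epha2 (r = 0.957) and Alox5 (0.956), and Abcg1 like Mid1ip1 (0.92) and Ggcx (0.914). Plin2 was most like Slc27a1 (0.975), a fatty acid transport protein, and Lasp1 (0.969), and Soat1 like Sdcbp (0.976) and Tmem167b (0.975). Lpl was nearest to Lage3 (0.922) and Poc1b (0.904), Apoe to Camsap1 (0.974) and Nt5dc3 (0.959), and Mylip to Cd300lb (0.918) and S100a6 (0.912). Nr1h2 was nearest to Zfp426 (0.971) and Sirt6 (0.958), and Nr1h3 to Pus10 (0.95) and Naa20 (0.938). None of the members compared was among the 2 nearest genes of another member. Ch25h lay below the mean of 50 needed and was not compared.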

How the data were processed

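Per the paper's methods and the submitters' processing notes, adapters were cut with cutadapt 4.4 and short or poor reads dropped with Trimmomatic 0.39, HISAT2 2.2.1 placed the read pairs on GRCm39, HTSeq 2.0.3 assigned them to genes of Ensembl annotation 110, and DESeq2 1.40.2 ran in R 4.3.1. The setting for strand is not given in the sources used here. The deposited signal values are gene counts that the authors divided by DESeq2 size factors, in 30 tables of pairwise comparisons. Their columns of fold changes, standard errors, test statistics and p-values were not used.

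From the deposited values whole reads were recovered: 100.0% of 3127002 values came out whole at a tolerance of 0.01 read, and 0 of 2446332 values shared between tables differed. Each comparison was fitted on the 6 libraries of its own groups with limma 3.58.1 (R 4.3.3, trend) on log2(normalized count + 1), over genes with at least 10 normalized counts in at least 3 libraries. A fold change on this scale understates the change of low genes. Benjamini-Hochberg adjustment ran over all tested genes, and calls were made at an adjusted p under 0.05. Differences between times were tested as interactions on 12 libraries under joint median-of-ratios factors, and the levels printed use such factors over 36 libraries. The alternatives were edgeR 4.0.16 and DESeq2 1.42.0 on the recovered reads, a pseudocount of 5, no filter, 1 fit on all 36 libraries, the replicate block and leaving out each library. Scripts were tested on simulated data. Confidence intervals are 95%.

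Same-numbered libraries were taken as paired where the deviations of all 3 pairs from their group means correlated above 0.1. This held for DMF and CBD against LPS at both times, MMF against LPS and DMF against MMF at 24 h, DMSO against EtOH at both times, and 24 h against 4 h with LPS and with MMF. The lowest correlation among these was 0.128 and the highest 0.749. At 4 h, every library correlated best with its same-numbered partner only for CBD against LPS and DMSO against EtOH. At 24 h that was so for DMF and MMF against LPS, and between the times for LPS alone. In the other comparisons taken as paired, some library correlated better with a different number. The main fits did not use the numbers, which entered only the replicate block. The rule names every member in every comparison. All tested members are given for each drug against LPS, for DMF against MMF and for LPS against its vehicles, and between the vehicles, between the times and in the interactions chiefly those that were called. From the other lists, called genes beyond an absolute log2 fold change of 1 are named, at most the 2 largest rises and falls of a list, and 2 nearest genes per member among those with a mean of at least 50. The members, lists and tests were chosen with earlier results of these data known. The exon lengths are unions of GENCODE vM39 exons.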

Additional observations from a re-analysis of the deposited data

Results flagged for a closer look

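For 14 combinations of gene and treatment, the effect at 24 h differed from that at 4 h by the interaction term of limma (adjusted p under 0.05), on the log2 scale as effect at 24 h minus effect at 4 h. For DMF over LPS the difference was 1.76 for Abca1, 1.399 for Abcg1, 0.88 for Nr1h3, 0.40 for Plin2 and -0.95 for Lpl. The Nr1h3 (adjusted p = 0.0469) and Plin2 (adjusted p = 0.0344) differences lost their calls when single libraries were left out, with adjusted p of up to 0.12 for Nr1h3 (without DMF replicate 2 at 24 h) and up to 0.101 for Plin2 (without DMF replicate 3 at 24 h). For CBD over LPS the difference was -2.01 for Abca1, 0.95 for Abcg1, 0.91 for Nr1h3, 0.68 for Soat1, 1.82 for Plin2 and -1.20 for Lpl. For LPS over DMSO it was -0.74 for Apoe and -1.04 for Plin2, and for LPS over EtOH it was -0.66 for Plin2. Groups of 3 libraries are too small for the test of a sample that lies far from its group.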

How the results depend on the processing

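Of 2871 values of single genes under an alternative, 94 had the opposite sign to the main value, and 0 of these were called in either fit (main log2 fold changes of at most 0.15 in size). Apart from leaving out a library, 6 calls were lost: Nr1h3 with no filter for DMF at 4 h (adjusted p = 0.0781) and for the DMF effect between the times (0.082), Plin2 by edgeR for MMF at 4 h (0.0644), and, in the fit on all 36 libraries, Abca1 for LPS against EtOH at 24 h (0.0636), Mylip for DMF against MMF at 24 h (0.12) and Lpl between the times in DMSO (0.222). The number of the 9 tested genes called stayed within 1.5 times under pseudocount 5 and no filter. The fit on all 36 libraries called 2 genes for LPS against DMSO at 4 h, 1 for LPS against EtOH at 4 h, 2 for DMF against MMF at 4 h and 1 for DMSO against EtOH at 4 h. For MMF against LPS at 4 h, edgeR called 0 genes and DESeq2 called 2. For DMSO against EtOH at 4 h, DESeq2 called 1. For the LPS against EtOH effect between the times, edgeR called 2 and DESeq2 called 3. The cause was not tested. With the replicate block, 3 genes were called for DMSO against EtOH at 4 h (Plin2, adjusted p = 0.000157, Lpl, 0.00442, and Abcg1, 0.0318), where 0 were called without it, and 1 at 24 h (Lpl, 0.031). Where the numbers do not pair the libraries, the replicate block called 2 genes for MMF against LPS at 4 h (Abcg1 added, adjusted p = 0.0104) and 2 for DMF against MMF at 4 h (Abca1 added, 0.0402). Beyond the calls given here and in the results, the block changed the call of Abcg1 in DMSO (0.0101) and of Lpl in EtOH (0.0374) between the times. No paired analysis was possible for LPS against its vehicles because the groups share no replicate numbers.

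Leaving out each library in turn, the count of genes called ranged as follows. At 4 h it was 1 to 2 for LPS against DMSO, 0 to 4 for DMF, 0 to 2 for MMF and 0 to 2 for DMF against MMF. At 24 h it was 3 to 4 for LPS against DMSO and against EtOH, 3 to 5 for DMF, 7 to 8 for CBD and 3 to 5 for DMF against MMF. It was 0 throughout for LPS against EtOH and CBD at 4 h, MMF at 24 h, DMSO against EtOH at both times and the MMF effect between the times. Between the times it was 3 to 7 in DMSO, 6 to 7 in EtOH, 2 to 4 with LPS, 5 to 7 with DMF, 4 to 6 with MMF and 7 to 8 with CBD. For the change of effects between the times it was 3 to 5 for DMF, 5 to 7 for CBD, 2 to 3 for LPS against DMSO and 1 to 3 for LPS against EtOH. Over single genes, 81 of 1620 values lost a call when a library was left out and 28 gained one. Ch25h held at most 7 reads in a library. With no filter, limma called it in 0 of 23 comparisons (lowest adjusted p = 0.0606), and with so few reads a difference in it could be missed.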
